A study of Bos taurus with 16 samples.

Results

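The data described here are the read counts of 5 genes, out of 27607 listed by Ensembl identifier, in monocyte-derived macrophages (MDMs) of cattle. The genes were taken by identifier from a list of extracellular matrix genes, and all 5 were present in each library. The list proposed them as COL1A1 (ENSBTAG00000013103), COL1A2 (ENSBTAG00000013472), COL3A1 (ENSBTAG00000021466), SPARC (ENSBTAG00000014835) and DCN (ENSBTAG00000003505). No table used here paired the identifiers with symbols, so these names are unchecked and the genes are called by identifier below. The reference table at hand, of the assembly ARS-UCD2.0, matched 0 of the 27607 identifiers.

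MDMs came from 4 Holstein animals, a taurine breed, and 4 Gir animals, an indicine breed, all healthy and no more than a year old. Mononuclear cells of peripheral blood were separated on Ficoll and cultured for 11 days in medium with fetal serum, and cells that did not adhere were washed away. The adherent cells then stayed in medium alone (unstimulated) or received 100 ng/ml lipopolysaccharide (LPS) of E. coli, a bacterial cell wall component that activates macrophages, for 48 h. Each animal gave 1 unstimulated and 1 LPS treated library, hence 16 libraries in 4 groups of 4. The methods name no sorting of the cells beyond adherence. The paper followed the adherent cells by flow cytometry and microscopy. It reports more CD14 and less CD11b after 11 days, and a shape compatible with macrophages. Whether the libraries carry the defining transcripts of macrophages, or of any other cell type, was not analysed here, because marker genes are known by symbol and the files list identifiers.

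Type I collagen, the product proposed for the first 2 genes, is a fibre of 2 kinds of chain that are made in a fixed proportion, and type III collagen, proposed for ENSBTAG00000021466, is laid down with it in soft tissue and healing wounds. SPARC is a secreted protein that binds collagen, and decorin, the product of DCN, is a small proteoglycan that attaches to collagen fibrils. In connective tissue these products are known mainly from fibroblasts and related stromal cells, SPARC is also known from platelets, and macrophages are known more for taking up and breaking down matrix. These statements are background on the proposed names.

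Libraries held between 7362247 and 10296054 counts on genes. Levels are given as CPM, the usual scaling of a gene's count to the summed counts of all genes in its library, where 1 CPM stood for between 7.36 and 10.3 counts. Together, the 5 genes took between 0.000520% of the counts in the LPS treated library of Gir animal 7 and 4.11% in the unstimulated library of Holstein animal 50. ENSBTAG00000013103 was the gene with rank 3 by count in that Holstein library and rank 10578 in that Gir library. Since these are bulk cultures, fewer cells of a type and less RNA per cell cannot be told apart in any value below.

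ENSBTAG00000013103, proposed as the alpha 1 chain of type I collagen, was at 6636, 9.59, 71.6 and 5707 CPM in the unstimulated libraries of Gir animals 2, 5, 6 and 7. In the unstimulated libraries of Holstein animals 1, 20, 3 and 50 it was at 7074, 8272, 13.2 and 15919 CPM. Each breed therefore held animals at 5707 CPM or more and animals below 100 CPM, and the breeds overlapped. After LPS, the Gir animals in the same order were at 3.55, 46.7, 16.3 and 2.48 CPM. The Holstein animals were at 1268, 2329, 249.7 and 2568 CPM after LPS, so that the lowest Holstein library was 5.34 times the highest Gir library.

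ENSBTAG00000013472, proposed as the alpha 2 chain that joins the former in type I collagen, had the same order of groups. Unstimulated Gir libraries held 3416, 6.85, 51.3 and 3467 CPM, and unstimulated Holstein libraries held 4236, 4822, 8.0 and 11106 CPM. The libraries low for the first gene (Gir animals 5 and 6, Holstein animal 3) were the low ones here too. LPS treated Gir libraries held 1.78, 30.3, 10.8 and 1.36 CPM, and LPS treated Holstein libraries held 992, 1254, 179.9 and 1655 CPM. The groups of LPS treated libraries did not overlap.

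ENSBTAG00000021466, proposed as the chain of type III collagen, was at 1689, 2.62, 19.8 and 1966 CPM in unstimulated Gir libraries and at 2241, 2259, 1.48 and 10355 CPM in unstimulated Holstein libraries. The unstimulated library of Holstein animal 50 thus stood well above that of any other animal for this gene. After LPS it was at 1.67, 5.48, 5.58 and 0.743 CPM in Gir and at 724, 871, 26.9 and 1606 CPM in Holstein. Again no Gir library reached the lowest Holstein library.

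ENSBTAG00000014835, proposed as the collagen-binding protein SPARC, was at 1569.9, 9.22, 23.2 and 831 CPM in unstimulated Gir libraries and at 1205, 1577, 3.82 and 3134 CPM in unstimulated Holstein libraries. LPS treated Gir libraries held 1.11, 13.6, 6.24 and 0.495 CPM, and LPS treated Holstein libraries held 339, 437, 58.2 and 402 CPM. The split within the unstimulated groups and the gap between the LPS treated groups were both present for this gene.

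ENSBTAG00000003505, proposed as the proteoglycan decorin, had the lowest counts of the 5 genes. Unstimulated Gir libraries held 309.8, 0.125, 0.679 and 97.1 CPM, and unstimulated Holstein libraries held 287, 318, 0.246 and 539.6 CPM. The 3 low values rest on 1, 5 and 2 counts. In LPS treated Gir libraries there were 0, 2, 1 and 1 counts (0, 0.224, 0.133 and 0.124 CPM), near the limit of what these libraries can show, since a count of 0 in the library of Gir animal 2 allows a level of up to 0.333 CPM when 3 counts are taken as the floor (the exact 95% interval reaches 0.41 CPM). LPS treated Holstein libraries held 135, 149.5, 9.30 and 68.3 CPM.

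**Figure D1:**
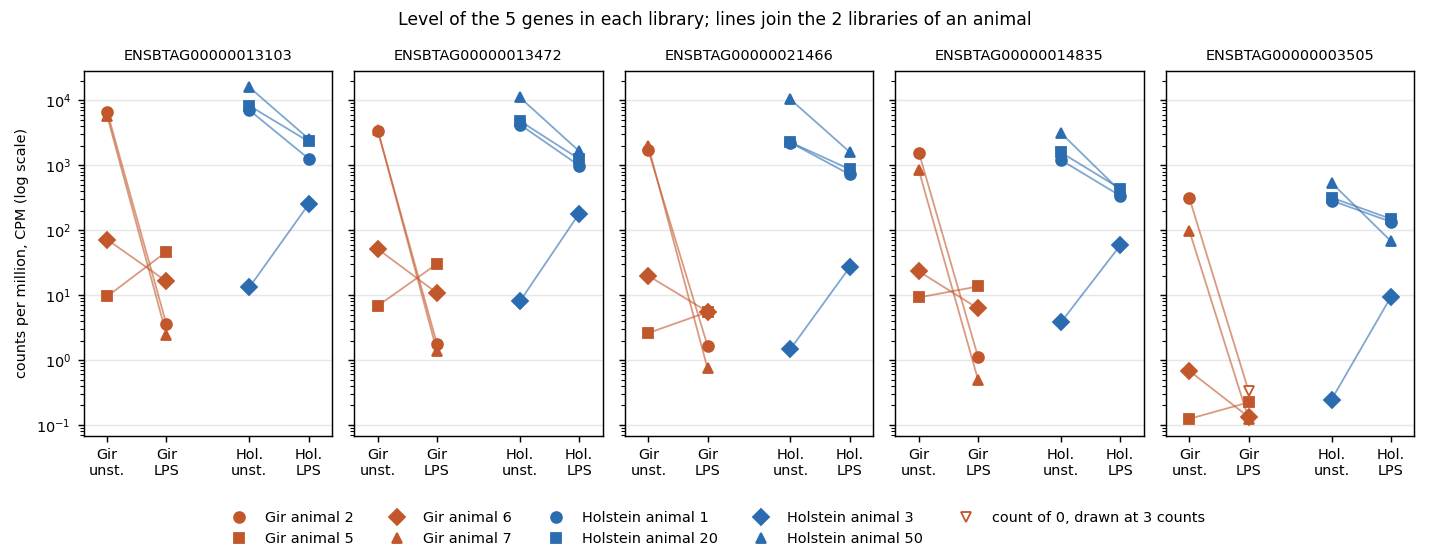
Level of each of the 5 genes in CPM (log axis) in unstimulated (unst.) and LPS treated libraries of 4 Gir (orange) and 4 Holstein (blue) animals, with a line joining the libraries of an animal. All LPS treated Holstein libraries lie above all LPS treated Gir libraries, and the lines of Gir animal 5 and Holstein animal 3 go up while the others go down.

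Ordered by their mean CPM, the groups ran for each of the 5 genes from unstimulated Holstein through unstimulated Gir and LPS treated Holstein to LPS treated Gir. For ENSBTAG00000013103 the means were 7819 ± 6514, 3106 ± 3560.2, 1604 ± 1065 and 17.3 ± 20.6 CPM (SD, n = 4 each). On the log2 scale, where the 2 high Gir libraries weigh less, the middle groups changed places for all 5 genes, with means for ENSBTAG00000013103 of 10.20 in LPS treated Holstein and 8.66 in unstimulated Gir libraries. The first 3 groups overlapped in their ranges, so that their order does not exceed the spread between animals. In the unstimulated groups the highest library was between 170.3 and 7012 times the lowest, depending on the gene and breed.

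The comparison of breeds without stimulation asks whether the macrophages differ at rest. None of the 5 genes passed the threshold there, which asks for an adjusted p under 0.05 and for a log2 fold change of 1 or more in either direction. The log2 fold changes of Holstein over Gir lay between 1.28 for ENSBTAG00000014835 (SE 1.69) and 1.99 for ENSBTAG00000021466 (SE 2.04). Adjusted p-values lay between 0.742 and 0.814 in edgeR's quasi-likelihood test with Benjamini-Hochberg adjustment, which called 0.318% of 12565 genes. An unadjusted p under 0.05 was reached by 0 of the 5 genes with edgeR's quasi-likelihood, likelihood ratio and exact tests and with DESeq2's Wald test, against 11.7%, 10.8%, 10.3% and 13.3% of all genes tested. The biological coefficient of variation, the fitted spread between animals beyond counting, was between 1.42 and 1.67 for the 5 genes, against 0.433 for all genes. Without Holstein animal 50 the log2 fold changes were between 0.62 and 1.00, and without Gir animal 2 between 1.96 and 3.07.

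The comparison of breeds after LPS asks whether the treated macrophages differ. Of the 5 genes, 4 reached 1 CPM in libraries of both breeds. ENSBTAG00000003505 did so in the 4 Holstein libraries alone, so that it could enter the test only through the breed in which it was high, and it is given apart. The 4 genes were higher in Holstein, with each of 4 Holstein libraries above each of 4 Gir libraries, a separation in this direction that 7.98% of the 11986 tested genes had. All 4 were called by edgeR's quasi-likelihood test with Benjamini-Hochberg adjustment, which called 3.26% of the tested genes higher in Holstein. Their median log2 fold change was 6.48, and that of all tested genes was 0.02.

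For the proposed collagen chains, the log2 fold change was 6.49 (SE 1.16) for ENSBTAG00000013103, 6.47 (SE 1.15) for ENSBTAG00000013472 and 7.87 (SE 1.24) for ENSBTAG00000021466. Their adjusted p-values in edgeR's quasi-likelihood test were 0.00689, 0.00662 and 0.00357. Expressed as summed counts over 4 libraries relative to depth, these genes were 95.7, 94.98 and 259.9 times as high in Holstein as in Gir. ENSBTAG00000014835, proposed as SPARC, had a log2 fold change of 5.79 (SE 1.03, adjusted p = 0.00648 in edgeR's quasi-likelihood test). ENSBTAG00000003505, proposed as decorin, had one of 9.36 (SE 1.08, adjusted p = 0.00106 in the same edgeR test). The fitted value of this last gene depends on the prior count, given its few Gir counts. Its summed counts of 3101 in Holstein and 4 in Gir give a ratio of 757, with a 95% interval from 295 to 2781 (exact, counting error only).

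The 4 genes were also called when any 1 animal was left out, in fits that called between 2.67% and 3.96% of all genes higher in Holstein. The largest shift came without Gir animal 5, when the log2 fold change of ENSBTAG00000013103 was 7.72 and that of ENSBTAG00000013472 was 7.75. With 1 model over all 16 libraries, whose estimate of spread includes the unstimulated libraries, 1 of the 4 genes was called, where 1.82% of all genes were called higher in Holstein. It was ENSBTAG00000021466 (adjusted p = 0.0469 in edgeR's quasi-likelihood test), and the other 3 had adjusted p-values between 0.0610 and 0.0628. ENSBTAG00000003505, set apart as before, had an adjusted p of 0.0340 in that edgeR fit.

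**Figure D2:**
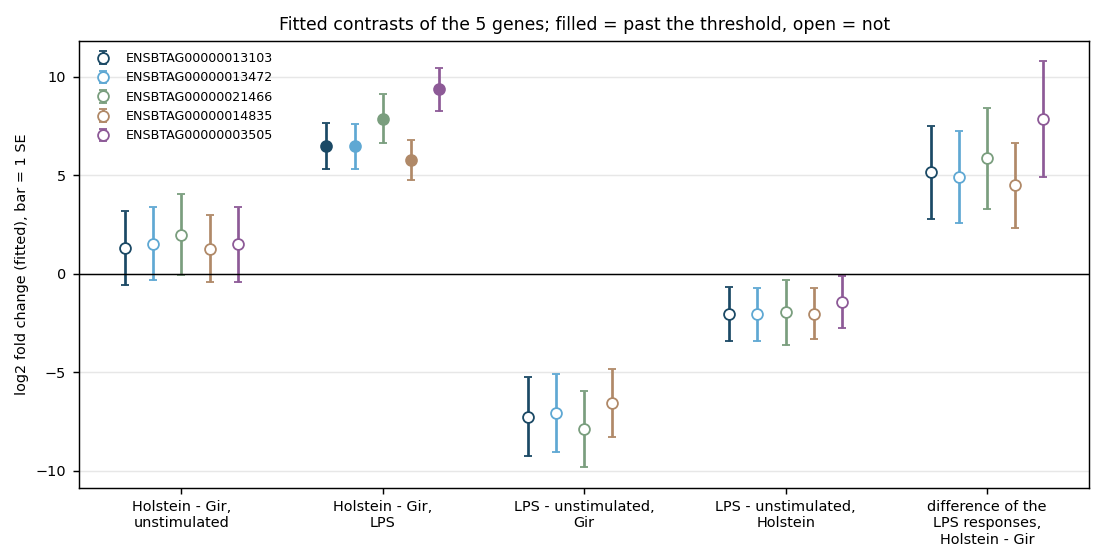
Fitted log2 fold changes with their SE for the 5 genes in each contrast (n = 4 libraries per group; filled symbols passed the threshold of edgeR's quasi-likelihood test). Only the contrast of breeds after LPS has filled symbols, between 5.79 and 7.87 for 4 genes. ENSBTAG00000003505 entered that contrast through the Holstein libraries alone and was not tested in the Gir contrast of stimulus.

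Within Gir, the comparison of stimulus asks what LPS changed in cells of the same animals. In Gir animals 2 and 7 the 5 genes stood at high levels without LPS and at between 0 and 32 counts with it. ENSBTAG00000013103 went from 65170 to 32 counts in animal 2, a level 1868 times lower (95% counting interval 1323 to 2732), and from 47212 to 20 counts in animal 7, a level 2305 times lower (1492 to 3774). For ENSBTAG00000003505, with 3042 counts and then 0, the level of animal 2 was at least 930.2-fold lower with 3 counts in the treated library as the floor, while the exact 95% counting interval starts lower, at 756-fold. In animal 2, ENSBTAG00000013103 had a log2 difference of -10.78, and 0.0231% of 12968 genes had a lower one.

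Gir animals 5 and 6 started from low levels and changed less. In animal 6, ENSBTAG00000013103 was 4.38 times lower with LPS (95% counting interval 3.59 to 5.38) and ENSBTAG00000021466 was 3.55 times lower (2.51 to 5.14). In animal 5 the direction was the opposite, with ENSBTAG00000013103 at 4.87 times its unstimulated level (3.81 to 6.30) and ENSBTAG00000014835 at 1.48 times (1.10 to 2.00). For ENSBTAG00000003505 the counting intervals of both animals include no change. Each of these ratios compares 1 library with another and has no replicate.

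Over the 4 Gir animals, log2 fold changes of the 4 tested genes were between -7.88 and -6.58, and none passed the threshold. Adjusted p-values were between 0.191 and 0.221 in edgeR's quasi-likelihood test, which called 0% of 11913 genes. All 4 had an unadjusted p under 0.05 in that test, as did 1393 genes in all. ENSBTAG00000003505 was not tested, because 2 of 8 Gir libraries reached 1 CPM. The call depended on the tool. DESeq2's Wald test called the same 4 genes lower with LPS (adjusted p between 0.000135 and 0.00183), where it called 1.54% of genes lower. DESeq2 also called ENSBTAG00000003505, which reached 1 CPM only in the unstimulated libraries of animals 2 and 7, so that this call adds no support. edgeR's likelihood ratio test and its exact test each called the 4 genes they tested, against 1.12% and 0.991% of all genes called lower.

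Since both libraries of an animal come from the same donor, the contrast was also fitted with the animal as a replicate block. In this paired fit 0 of the 4 genes were called in Gir, with log2 fold changes between -5.71 and -5.06 and adjusted p-values between 0.395 and 0.467 (edgeR's quasi-likelihood test), and 0.0504% of genes were called lower. These values rested on single animals, as they were between -2.85 and -2.26 without animal 2 and between -2.53 and -2.22 without animal 7. Without animal 5 or 6 they were between -8.96 and -7.62. Each of these fits had 0 calls among the 4 genes. The share of all genes called lower was 0.109% without animal 2, 0.0333% without animal 5, 0.624% without animal 6 and 0% without animal 7. DESeq2's Wald test with the same block called the 4 genes (adjusted p between 0.0309 and 0.0428), against 1.23% of genes called lower, and ENSBTAG00000003505 with the same limit as above. Over all settings tried, the adjusted p of ENSBTAG00000013103 in Gir ranged from 0.00125 to 0.817.

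Within Holstein, the genes were lower with LPS in 3 animals and higher in 1. ENSBTAG00000013103 was 5.58, 3.55 and 6.20 times lower in animals 1, 20 and 50. ENSBTAG00000003505 was 2.13, 2.13 and 7.90 times lower in the same animals. In animal 3, whose unstimulated library had between 2 and 107 counts of each gene, ENSBTAG00000013103 was at 18.96 times (95% counting interval 15.6 to 23.3) and ENSBTAG00000003505 at 37.8 times (10.1 to 318) its unstimulated level. Holstein animal 3 after LPS still held less of each gene than the other Holstein animals after LPS.

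No gene of the 5 passed the threshold in Holstein. The log2 fold changes lay between -2.06 and -1.43 and the adjusted p-values between 0.854 and 0.935 in edgeR's quasi-likelihood test, which called 0% of 12400 genes and gave 841 genes an unadjusted p under 0.05. With the replicate block the values lay between -1.12 and -0.79, with adjusted p-values between 0.575 and 0.657 (edgeR's quasi-likelihood test), while 2.02% of genes were called lower. The outcome turned on Holstein animal 3. Without it, the paired fit called all 5 genes lower with LPS, where it called 7.41% of genes lower. The log2 fold changes were then between -2.08 for ENSBTAG00000013103 (SE 0.23) and -1.46 for ENSBTAG00000003505 (SE 0.34), with adjusted p-values between 0.000850 and 0.0212 in edgeR's quasi-likelihood test. This fit was added after the values of that animal had been seen. Leaving out another Holstein animal from the paired fit gave 0 calls among the 5 genes, where 0.338% (without animal 1), 0.0322% (animal 20) and 0.444% (animal 50) of all genes were called lower. The log2 fold changes of the 5 genes also came closer to 0, lying between -0.77 and -0.47 without animal 1, between -0.87 and -0.59 without animal 20 and between -0.50 and -0.12 without animal 50.

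Whether LPS acted differently in Holstein and Gir was tested directly, as an interaction. ENSBTAG00000003505 is set apart here too, since it reached 1 CPM in 7 Holstein and 2 Gir libraries, and its fitted value depends on the prior count. The interaction was positive for the other 4 genes, from 4.49 (SE 2.14) for ENSBTAG00000014835 to 5.85 (SE 2.56) for ENSBTAG00000021466 on the log2 scale. None of the 5 was called, with adjusted p = 1 for each in edgeR's quasi-likelihood test, and neither was any other gene (0% of 12968). An unadjusted p under 0.05 was found for 2 of the 4 genes and for 249 of all (1.92%). With the animal as a replicate block it was found for 0 of the 4 and for 1074 of all (8.28%), and the log2 values of the 4 were between 3.95 and 4.53. In this paired fit the interaction of ENSBTAG00000013103 was 4.53, but 1.07 without Gir animal 2 and 1.06 without Gir animal 7. It moved the other way without Gir animal 5 or 6, where the lowest value among the 5 genes was 6.45 and 6.54. Without the block, DESeq2's Wald test called 2 of all genes and none of the 5. The breed difference after LPS and the missing call without it are therefore not shown to differ.

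The 5 genes varied together. In unstimulated cultures Holstein animal 50 had rank 1 and Holstein animal 20 rank 2 for every gene, Gir animal 6 had rank 6, and Gir animal 5 and Holstein animal 3 took the last places. The SD of log2 CPM over 16 libraries was between 3.99 and 4.72 for the 5 genes, and the median over 12968 genes was 0.451. ENSBTAG00000021466 had the largest SD of all these genes, ENSBTAG00000003505 had rank 3, ENSBTAG00000013103 rank 4, ENSBTAG00000013472 rank 5 and ENSBTAG00000014835 rank 16.

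**Figure D3:**
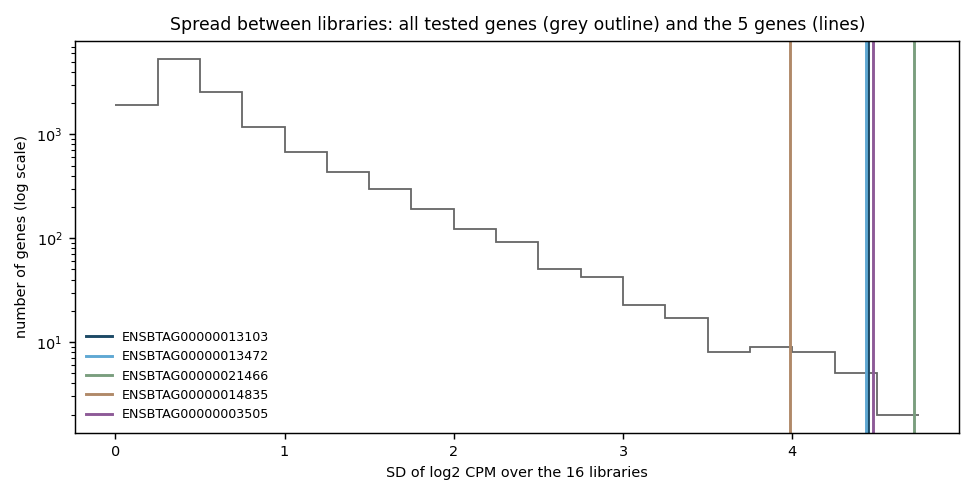
Number of genes (log axis) by the SD of their log2 CPM over the 16 libraries, as a grey outline for all 12968 genes, with lines at the 5 genes. The lines stand between 3.99 and 4.72, at the upper end, while the median gene is at 0.451.

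Ratios of counts within a library do not depend on its depth. ENSBTAG00000013472 had between 0.500 and 0.782 counts for each count of ENSBTAG00000013103 in all 16 libraries, with a median of 0.626, although the level of both genes ran over more than 3 orders of magnitude. The names proposed for this pair are the chains of a single collagen. ENSBTAG00000021466 varied more, from 0.108 counts for each of ENSBTAG00000013103 in the LPS treated library of Holstein animal 3 to 0.651 in the unstimulated library of Holstein animal 50. ENSBTAG00000014835 ranged from 0.146 in unstimulated Gir animal 7 to 0.961 in unstimulated Gir animal 5, where it rests on 74 counts against 77. ENSBTAG00000003505, in the 10 libraries with more than 3 counts of it, ranged from 0.00949 to 0.106. Counts are not divided by transcript length, so these ratios describe how steady a pair was across libraries and not which gene had more transcripts.

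**Figure D4:**
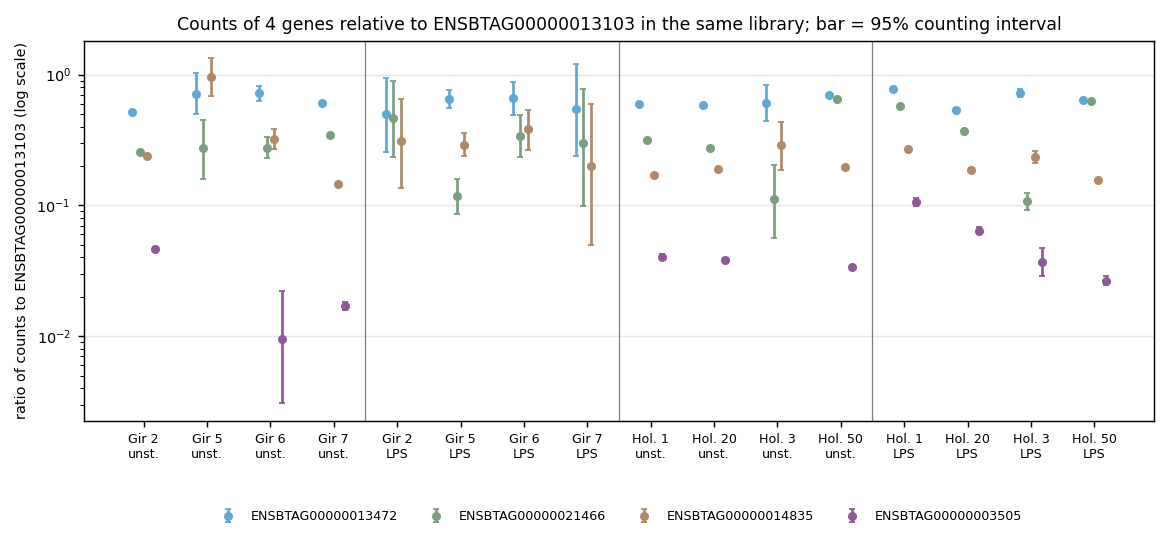
Counts of 4 genes divided by the counts of ENSBTAG00000013103 in the same library (log axis), with 95% counting intervals, for 16 libraries in 4 groups set apart by vertical lines; ENSBTAG00000003505 is drawn where it had more than 3 counts. ENSBTAG00000013472 stays between 0.500 and 0.782, and the other ratios vary by more.

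Other genes had a like pattern over the libraries. For each of the other genes, Pearson's r was computed over the 16 libraries between its log2 CPM and the mean of the 5 genes after each had been scaled. The libraries share animals, breed and stimulus, so these values are a description. The highest r was 0.997 for ENSBTAG00000004014 and the next 0.995 for ENSBTAG00000006214. Of 12963 genes, 304 had an r above 0.9 and 0 had an r below -0.9. ENSBTAG00000004014 had 791, 0.872, 8.15 and 510.2 CPM in unstimulated Gir libraries and 642, 1036, 1.11 and 1213 CPM in unstimulated Holstein libraries. After LPS it had 0.444, 5.14, 2.13 and 0.371 CPM in Gir and 145, 325, 32.3 and 237 CPM in Holstein. As for the 5 genes, no LPS treated Gir library of this gene reached the lowest LPS treated Holstein library. The gene was picked for its likeness to the 5 over these same libraries, so this adds no support. The lowest r was -0.87 for ENSBTAG00000015297, whose CPM ranged only from 9.70 to 46.6.

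The number of genes with at least 1 count moved in part with the 5 genes. In unstimulated libraries it was 16652, 15044, 15070 and 15920 for Gir animals 2, 5, 6 and 7 and 16231, 16370, 15328 and 16512 for Holstein animals 1, 20, 3 and 50. The 3 unstimulated libraries with low levels of the 5 genes were thus those with the fewest genes detected. After LPS it was between 14803 and 15448 in Gir and between 15392 and 16142 in Holstein. They also had the lowest depth of the unstimulated libraries, from 7362247 to 8125681 counts against 8272566 to 9820099 in the other 5, whereas their levels of ENSBTAG00000013103 were between 9.59 and 71.6 CPM against 5707 to 15919. After LPS the depths of the breeds overlapped (7527058 to 9008265 in Gir and 7742663 to 10296054 in Holstein). The part of depth, and of cells other than macrophages, in these differences was not tested.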

How the data were processed

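RNA of MDMs was enriched for polyadenylated transcripts, and stranded libraries were sequenced as paired ends. The authors aligned reads with STAR 2.6.0c and counted them on Ensembl genes with HTSeq 0.10.0, so that the deposited values are raw counts per gene, neither normalized nor filtered. The paper names the build ARS-UCD1.2 and the submitters' processing notes name UMD3.1, so no coordinates are given. The strand setting of the counting is not given in the sources used here. The 5 counters of reads without a gene were left out of library sizes. The counters of reads with no feature, ambiguous reads and multiple alignments came to between 18.4% and 23.2% of the counts on genes and these counters. The counter of low quality, which equals that of multiple alignments, and that of unaligned reads were not added.

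Groups came from the labels, which read taurine (Holstein here) and indicine (Gir). The 5 genes and all lists were chosen with earlier results of these data known. A list of further matrix genes and lists of cell type markers are by symbol and were not analysed here. The genes named are the 5 members and those with the 2 highest and 2 lowest r to them. Sequences are not shown.

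The tests on counts used edgeR 4.0.16 in R 4.3.3 (TMM, quasi-likelihood test, Benjamini-Hochberg adjustment over all tested genes) and DESeq2 1.42.0. A gene entered an edgeR contrast when 4 or more of its libraries reached 1 CPM. In fits without an animal this limit was 1 library lower. DESeq2 was given all genes with a count, so shares over all genes rest on different gene sets. The animal numbers pair the libraries, since both libraries of a number come from 1 animal. Deviations from group means correlated between 0.638 and 0.823 within Holstein animals and between 0.0102 and 0.312 within Gir animals. The p-values of unpaired fits do not use this pairing. For log2 levels a prior count of 2 was used. The SE of an edgeR log2 fold change was derived from that fold change and the F statistic of its test. Counting intervals are exact at 95% and cover counting error only. Scripts were in R and in Python 3.11.15 (scipy 1.17.1, matplotlib 3.10.9). In R, the quasi-likelihood, likelihood ratio and DESeq2 tests were tried on simulated counts. The exact test, the model over all libraries and the Python scripts were not. Alternatives were other scalings, filters and tests, 1 model over all libraries, the replicate block and leaving out each animal.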

Additional observations from a re-analysis of the deposited data

Results flagged for a closer look

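In a group of 4, a library was singled out when its gap to the nearest other library, as a share of the range of log2 CPM, passed Dixon's critical value. Of 20 combinations of gene and group, 5 were singled out, and chance alone singles out about 1 in 20. In all 5 the library was the lowest of its group and came from Holstein animal 3. For its unstimulated library the share was 0.885 for ENSBTAG00000013103, 0.866 for ENSBTAG00000013472, 0.856 for ENSBTAG00000014835 and 0.910 for ENSBTAG00000003505. For its LPS treated library it was 0.874 for ENSBTAG00000014835. The 5 genes vary together, so these are not separate observations.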

How the results depend on the processing

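The number of genes called among the 5 kept within 1.5 times the reported count in 94 of 100 combinations of contrast and alternative. These counts include ENSBTAG00000003505. In every contrast but breed after LPS the reported count was 0, so there a kept count means 0 calls again. No log2 fold change of a tested member changed sign. Breed after LPS had calls for the 4 genes that reached 1 CPM in both breeds under every alternative but 1 model over all libraries, which called 1 of the 4 (2 with ENSBTAG00000003505). The other alternatives called between 2.67% and 5.21% of all genes higher in Holstein. LPS in Gir had 0 calls by the quasi-likelihood test, 5 by DESeq2 (4 without ENSBTAG00000003505, which had 2 counts or fewer in each treated library), 4 by the likelihood ratio test, 4 by the exact test, 0 with the replicate block and 5 (again 4 without that gene) with the replicate block and DESeq2. The replicate block with the likelihood ratio test gave 0, where it called 1.35% of all genes lower. LPS in Holstein had 0 calls, also with the replicate block, except in the leave-one-out fits with the block, which ranged from 0 to 5, with 5 without Holstein animal 3. The interaction had 0 calls among the 5 throughout, including with the replicate block. Of all genes, the block called 0 with the quasi-likelihood test, 114 of 12968 with the likelihood ratio test and 13 of 1391 with DESeq2. The cause of the difference between tools was not tested. The block with DESeq2, with the likelihood ratio test and with leaving out an animal was chosen after seeing the data.

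Scaling by TMM moved each mean level by less than 1 SD. The SDs were of the order of the means, so this limit is too wide to test the effect of scaling. The TMM factors lay between 0.874 and 1.127. The r of ENSBTAG00000007520, the gene with the second lowest r, was -0.81 over all libraries, -0.67 over unstimulated and -0.92 over LPS treated libraries. Levels under 1 CPM rest on fewer than 11 counts. With 4 animals a group and the spread seen here, a missing call does not show that a gene did not change.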
